A study of Arabidopsis thaliana with 24 samples.

Results

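The plastid genome of Arabidopsis thaliana carries 4 genes for the core subunits of its own RNA polymerase, and rpoB, rpoC1 and rpoC2, which encode the β, β′ and β″ subunits, are described here. They are 3 of 16554 genes with a probe set named for 1 gene, and 1 probe set stands for each of them. The 3 genes were picked from these data for higher levels where the chromatin remodelling ATPase BRAHMA (BRM) is lost. Every difference between plants with and without BRM is therefore given below as a description, with no test. The heat responses and the effects of losing the histone deacetylase HD2C, in which BRM status is held fixed, were tested. These tests use the arrays on which the genes were picked, so they are not fully independent of that choice.

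The study compared 4 genotypes in the Col-0 background, which were WT, the mutants hd2c-3 and brm-1, and the double mutant brm-1 hd2c-3. Plants were 3 weeks old, had grown on soil in days of 16 h light, and were taken either in control conditions or after 1 h at 38 °C, with 3 arrays in each of the 8 groups and 24 arrays in all. The labels name plants and no organ, and they do not say whether several plants were pooled. The submitters picked biological replicates that were alike in unnamed marker genes, a choice that can make replicates look closer than unselected plants would. Neither BRM nor HD2C has a named probe set, so the mutant labels were not checked against these transcripts.

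The plastid-encoded polymerase is a bacterial-type enzyme. Its catalytic core, built from the products of rpoA, rpoB, rpoC1 and rpoC2, is directed to promoters by nuclear-encoded sigma factors and transcribes most photosynthesis genes of the chloroplast. The genes rpoB, rpoC1 and rpoC2 lie next to each other and are transcribed together, mainly by a different enzyme, a nuclear-encoded phage-type RNA polymerase. rpoA, for the α subunit, lies elsewhere, in a cluster of ribosomal protein genes. BRM and HD2C are proteins of nuclear chromatin: BRM moves nucleosomes as the ATPase of SWI/SNF complexes, and HD2C belongs to a plant-specific family of histone deacetylases. In the reference annotation TAIR10.1 the protein-coding neighbours run in the order atpI, rps2, rpoC2, rpoC1, rpoB, petN and psbM.

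All levels are log2 probe set intensities. For rpoB, whose product forms much of the catalytic cleft, the 3 control arrays of WT read 10.21, 10.22 and 10.04 and those of hd2c-3 read 10.14, 10.12 and 9.86. In the control arrays of brm-1 it read 10.61, 10.52 and 10.27, and in those of the double mutant 10.56, 10.52 and 10.16. Of the 6 control arrays without BRM 5 lay above all 6 with BRM, and the exception was replicate 3 of the double mutant. Such counts, here and for rpoC1 and rpoC2 below, describe genes that were picked for this difference. The share of all genes that separate in this way was not computed, so nothing is read from them. In heat rpoB read 10.26, 10.20 and 9.996 in WT and 9.93, 10.27 and 10.12 in hd2c-3. The heated brm-1 arrays read 10.47, 10.50 and 10.56 and the heated double mutant arrays 10.23, 10.46 and 9.88. The heated brm-1 arrays were thus tight and high, whereas the heated double mutant spread over the whole range of WT and hd2c-3.

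rpoC1 encodes the subunit that holds the catalytic magnesium ion. Its level in control was 10.13, 10.31 and 10.16 in WT and 10.09, 10.07 and 10.07 in hd2c-3, against 10.77, 10.60 and 10.41 in brm-1 and 10.69, 10.55 and 10.45 in the double mutant. All 6 control arrays without BRM lay above all 6 with BRM. After heat rpoC1 read 10.32, 10.33 and 10.27 in WT and 9.89, 9.89 and 10.33 in hd2c-3. The heated arrays of brm-1 read 10.47, 10.65 and 10.65 and those of the double mutant 10.16, 10.56 and 10.18. Again all 3 heated brm-1 arrays stood above WT, and only replicate 2 of the heated double mutant did.

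rpoC2 encodes the β″ subunit, the other part of what is a single β′ chain in most bacteria. In control it read 10.15, 10.30 and 10.14 in WT, 10.21, 9.91 and 10.01 in hd2c-3, 10.65, 10.54 and 10.56 in brm-1, and 10.74, 10.51 and 10.40 in the double mutant. As for rpoC1, the arrays with and without BRM did not overlap in control. In heat rpoC2 read 10.26, 10.36 and 10.17 in WT, 9.85, 10.25 and 10.17 in hd2c-3, 10.61, 10.66 and 10.72 in brm-1, and 10.32, 10.54 and 10.25 in the double mutant. In heat 4 of 6 arrays without BRM lay above all 6 with BRM for each of rpoB, rpoC1 and rpoC2.

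**Figure D1:**
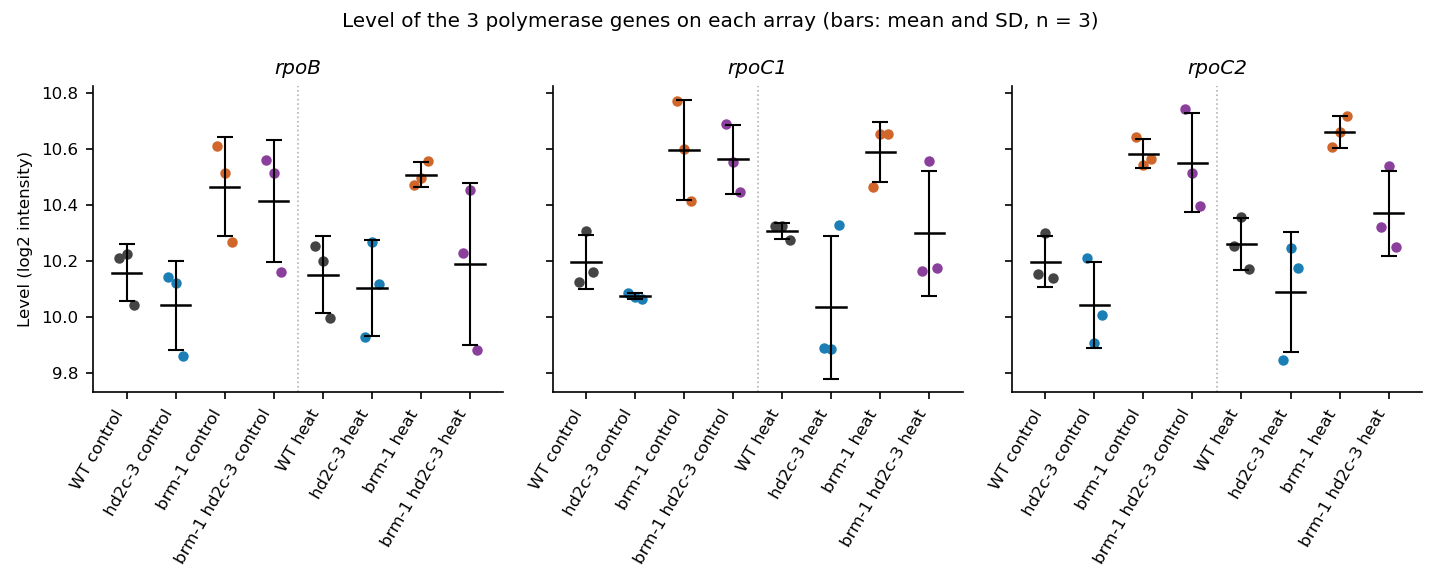
Level of rpoB, rpoC1 and rpoC2 on each of the 24 arrays, in log2 intensity on the vertical axis, with the 8 groups on the horizontal axis, points for arrays in the order of replicates 1 to 3, and black bars for the mean and SD (n = 3). In control the 6 arrays without BRM lie above the 6 with BRM for rpoC1 and rpoC2, a difference for which the genes were picked. In heat the brm-1 arrays stay high while those of brm-1 hd2c-3 spread downwards.

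The order of the 8 groups was much the same for the 3 genes. For rpoC2 the group means ran from 10.66 ± 0.06 (SD, n = 3) in heated brm-1 through 10.58 ± 0.05 in brm-1 control and 10.55 ± 0.18 in double mutant control to 10.37 ± 0.15 in the heated double mutant. Below these came heated WT at 10.26 ± 0.09, WT control at 10.20 ± 0.09, heated hd2c-3 at 10.09 ± 0.21 and hd2c-3 control at 10.04 ± 0.15. Steps between neighbours in this order were mostly within their SD, so the order shows a high group (brm-1 in both conditions and the double mutant in control), a low group (WT and hd2c-3) and the heated double mutant between them. rpoB had the same order, except that WT control and heated WT, at 10.16 ± 0.10 and 10.15 ± 0.14, changed places. For rpoC1 the highest mean was brm-1 control (10.60 ± 0.18) and the lowest heated hd2c-3 (10.03 ± 0.25), and heated WT (10.31 ± 0.03) and the heated double mutant (10.30 ± 0.22) could not be ordered.

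Without BRM the 3 genes were higher, which is the pattern they were picked for. The values of brm-1 minus WT in control were 0.31 ± 0.15 (moderated standard error, SE, here and for each difference below) for rpoB, 0.40 ± 0.13 for rpoC1 and 0.39 ± 0.13 for rpoC2, or 1.24-fold, 1.32-fold and 1.31-fold. In the absence of HD2C, the double mutant minus hd2c-3 in control gave 0.37 ± 0.15, 0.49 ± 0.13 and 0.51 ± 0.13 for rpoB, rpoC1 and rpoC2, the last being 1.42-fold. After heat brm-1 minus WT was 0.36 ± 0.15 for rpoB, 0.28 ± 0.13 for rpoC1 and 0.40 ± 0.13 for rpoC2. The values of the heated double mutant minus heated hd2c-3 were lower, at 0.08 ± 0.15 for rpoB, 0.26 ± 0.13 for rpoC1 and 0.28 ± 0.13 for rpoC2. For rpoB that value was −0.05 without replicate 2 and 0.24 without replicate 3 of the heated double mutant. It was 0.14 for rpoC1 without replicate 2 of the heated double mutant, 0.41 for rpoC1 without replicate 3 of heated hd2c-3, and 0.16 for rpoC2 without replicate 1 of heated hd2c-3.

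Between brm-1 and WT in control the values of the 2 groups did not overlap for 3 of 3 genes, as for 11.4% of all genes tested in the same direction, and in heat again for 3 of 3, against 10.2%. For the double mutant against hd2c-3 they did not overlap for 3 of 3 in control, against 9.91% of all genes, and for 1 of 3 (rpoC2) in heat, against 7.21%. Since the genes were chosen on these contrasts, nothing is read from the counts. The heat response of brm-1 minus that of WT was 0.05 ± 0.21 for rpoB, −0.12 ± 0.19 for rpoC1 and 0.01 ± 0.18 for rpoC2. The heat response of the double mutant minus that of hd2c-3 was −0.29 ± 0.21 for rpoB, −0.22 ± 0.19 for rpoC1 and −0.23 ± 0.18 for rpoC2. These values came closest to 0 at −0.13 for rpoB without replicate 3 of the heated double mutant, −0.08 for rpoC1 without replicate 3 of heated hd2c-3 and −0.13 for rpoC2 without replicate 1 of the double mutant control group.

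The RNA comes from plants in bulk, so that more plastids or green cells and more transcript per plastid cannot be told apart. Of 12 nuclear marker genes of photosynthetic leaf tissue only LHCB4.1, an antenna protein of photosystem II, has a named probe set of its own. It read 8.97, 8.99 and 8.99 in WT control and 9.21, 9.24 and 9.24 in brm-1 control, a difference of 0.24 ± 0.11 (adjusted p = 0.292). In double mutant control it read 9.23, 9.24 and 9.30, against 8.99, 8.87 and 9.15 in hd2c-3, a difference of 0.25 ± 0.11 (adjusted p = 0.308). LHCB4.1 was thus higher on every control array without BRM, although it was not called. The share of all genes with such a separation was not computed. In heat brm-1 minus WT was 0.14 ± 0.11 for LHCB4.1 (adjusted p = 0.627). The double mutant minus hd2c-3 in heat was 0.14 ± 0.11 (adjusted p = 0.570), and the arrays overlapped in both. The part of LHCB4.1, or of the tissue it marks, in the levels of the polymerase genes was not tested. With heat LHCB4.1 rose by 0.35 ± 0.11 in WT (adjusted p = 0.0341), a call lost under 7 of 15 alternatives, each single WT array among them. Of 7 root markers only the root hair expansin EXPA7 is measured, with group means of at most 2.43, and of 6 flower markers none is.

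The neighbours and the rest of the plastid genome show how far the difference is shared. Single-gene probe sets exist for 60 other plastid genes. The difference of brm-1 minus WT in control had a median of 0.02 over these 60, with a range from −0.14 to 0.45, and a median of −0.01 over all genes tested. In that contrast rpoC1, rpoC2 and rpoB held places 2, 3 and 5 from the top among the 63 plastid genes. For the double mutant minus hd2c-3 in control the 60 had a median of 0.04 and the same 3 genes held places 3, 2 and 5. In heat they held places 3, 1 and 2 for brm-1 minus WT, and 3, 2 and 14 for the double mutant minus hd2c-3. These places describe genes that were picked for this pattern.

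The nearby genes had smaller differences in control. Unlike the members they were not picked for a high difference, so smaller values are partly built in, and the gap was not tested. For rps2, a ribosomal protein gene next to rpoC2, brm-1 minus WT in control was 0.13 ± 0.14 (adjusted p = 0.844) and the double mutant minus hd2c-3 was 0.22 ± 0.14 (adjusted p = 0.631). For petN, a small cytochrome b6f subunit on the other side of rpoB, these values were −0.13 ± 0.10 (adjusted p = 0.723) and −0.01 ± 0.10 (adjusted p = 0.994). For psbM, beyond petN, they were 0.08 ± 0.20 (adjusted p = 0.953) and 0.24 ± 0.20 (adjusted p = 0.782). rpoA, the remaining core subunit gene, gave 0.17 ± 0.12 (adjusted p = 0.620) and 0.09 ± 0.12 (adjusted p = 0.910) in the same contrasts. Its control arrays read 11.10, 11.16 and 11.17 in WT, 11.11, 11.06 and 11.24 in hd2c-3, 11.31, 11.17 and 11.44 in brm-1 and 11.31, 11.11 and 11.25 in the double mutant. The brm-1 control arrays of rpoA lay just above those of WT, whereas those of the double mutant and hd2c-3 overlapped, as did both pairs in heat. For rps2 in heat brm-1 minus WT was 0.17 ± 0.14 (adjusted p = 0.660), without overlap of the arrays, as for 10.2% of all genes. The heated double mutant and heated hd2c-3 had nearly the same mean of rps2, at 11.20 in each.

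**Figure D2:**
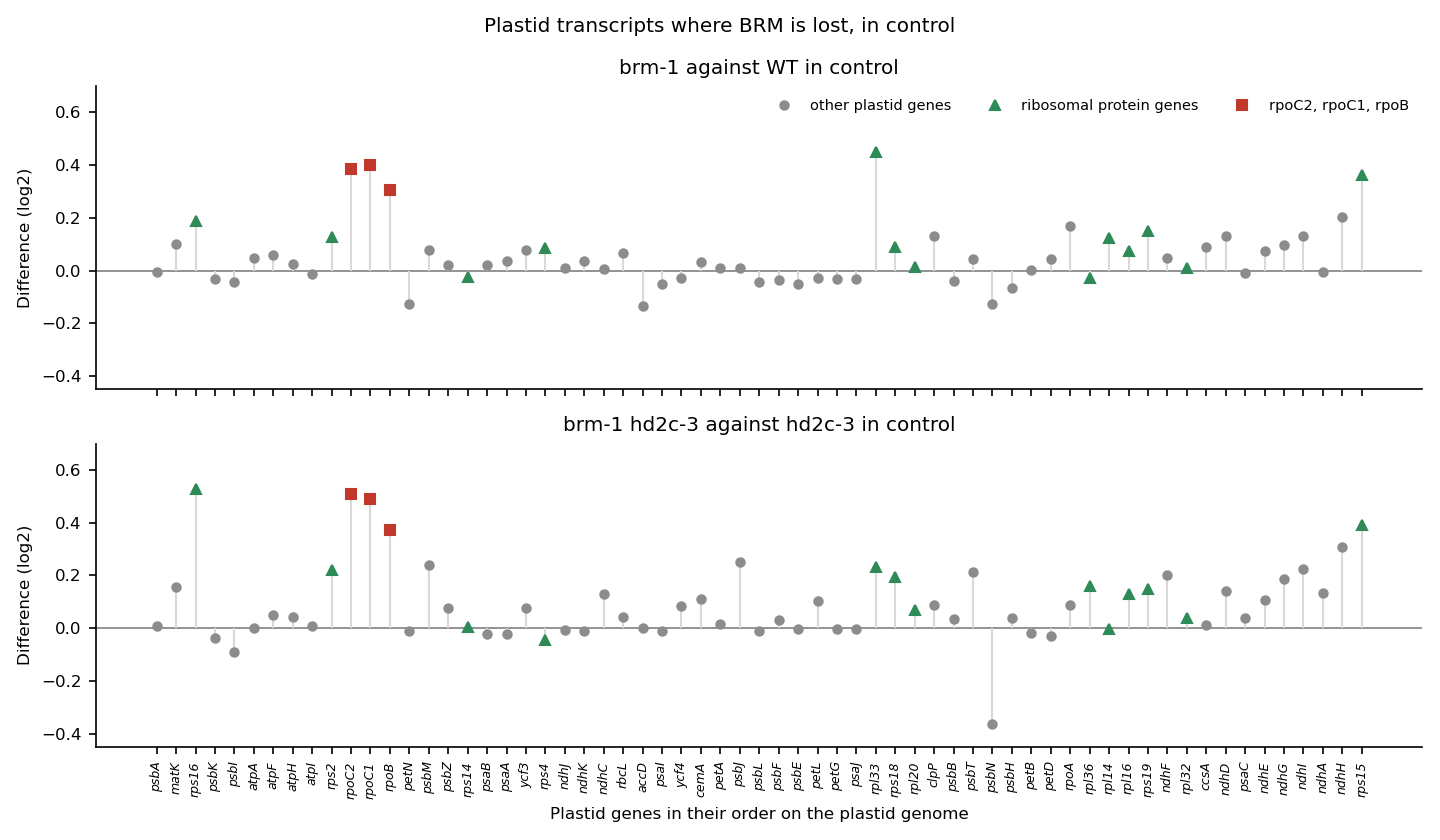
Difference in log2 intensity (vertical axis) of 63 plastid genes placed in their order on the plastid genome (horizontal axis), for brm-1 minus WT in control above and brm-1 hd2c-3 minus hd2c-3 in control below. Red squares mark rpoC2, rpoC1 and rpoB, which stand at 0.31 to 0.51. Green triangles mark ribosomal protein genes, of which rpl33, rps15 and rps16 reach similar values in at least 1 panel. Grey circles mark the remaining genes, of which ndhH stands at 0.31 in the lower panel.

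Among the 60 other plastid genes limma called rps15, a gene of the small ribosomal subunit, as higher in brm-1 than in WT in control (0.36 ± 0.10, adjusted p = 0.0290) and no gene as lower. In the double mutant against hd2c-3 in control rps15 rose by 0.39 ± 0.10 (adjusted p = 0.0217) and rps16 rose by 0.53 ± 0.13 (adjusted p = 0.0233). The shares of all genes called higher in these contrasts were 2.22% and 1.61%. The call of rps15 against WT was lost under 8 of 15 alternatives, both other scalings and each single brm-1 control array among them. In the other contrast rps15 lost its call under 7 of 15 alternatives, and rps16 under 5, each of which left out 1 array. In heat 0 of 60 were called in either BRM contrast, against 5.1% and 5.03% of all genes, with 2 at an unadjusted p under 0.05 in each and 1 called without moderation in each. Of the 13 measured ribosomal protein genes of the plastid, rpl33 had the highest difference of brm-1 minus WT in control (0.45), and it was not called.

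Set against the median of the 60 other plastid genes on the same array, the 3 polymerase genes kept most of their difference in control. There brm-1 minus WT was 0.27 for rpoB, 0.36 for rpoC1 and 0.35 for rpoC2 on this relative scale, where the plastid median itself differed by 0.04. The double mutant minus hd2c-3 in control gave 0.30, 0.42 and 0.44, with 0.07 for the plastid median, and the relative values of rpoB overlapped between these groups. In heat brm-1 minus WT was 0.38, 0.31 and 0.42, and the double mutant minus hd2c-3 was 0.03, 0.21 and 0.23. Relative to the 13 plastid ribosomal protein genes alone the control values of brm-1 minus WT were 0.18, 0.27 and 0.26, since the median of that group was 0.13 higher in brm-1. The mean levels of the other plastid genes ran from 8.90 to 12.58 with a median of 11.76, while the array maxima lay between 12.9 and 13.1. Across the 63 genes, which share arrays and scaling, the difference of brm-1 minus WT in control went down with mean level (Pearson r = −0.46, Spearman rho = −0.44), and that of the double mutant minus hd2c-3 did so too (r = −0.50, rho = −0.59). In heat the values were r = −0.06 and rho = −0.15 for brm-1 minus WT, and r = −0.05 and rho = −0.19 for the double mutant minus hd2c-3. The 63 include the 3 members, which were picked for high values in these contrasts and have low mean levels, from 10.25 to 10.35. They therefore add to the negative values in control, and the correlations over the 60 others were not computed. The spread between replicates also went down with mean level (rho = −0.81). Whether signals near the top of the scale are compressed was not tested.

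**Figure D3:**
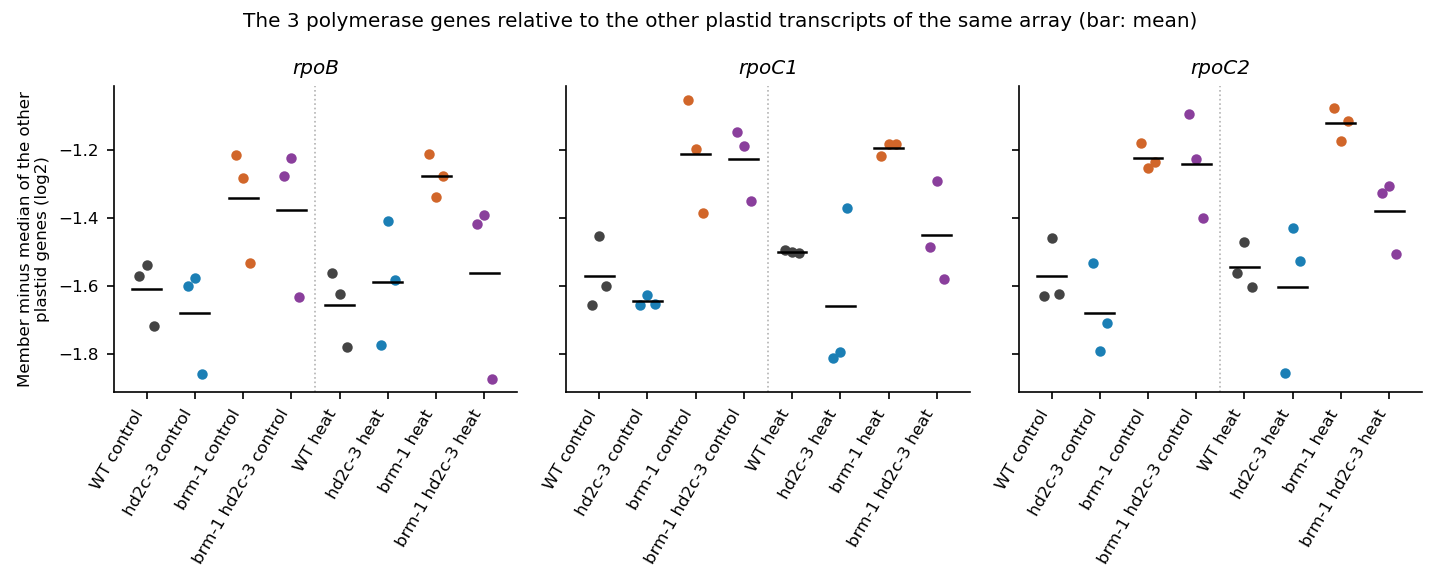
Level of rpoB, rpoC1 and rpoC2 on each array minus the median of the 60 other plastid genes on that array (vertical axis, log2), with the 8 groups on the horizontal axis and black bars for group means. The brm-1 groups keep a higher position in both conditions. For rpoC1 and rpoC2 the mean of heated brm-1 hd2c-3 lies between them and heated hd2c-3, while for rpoB it is close to heated hd2c-3. The arrays of heated brm-1 hd2c-3 and heated hd2c-3 overlap for each gene. The height of the scale itself compares different probe sets and carries no meaning.

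The heat responses ask whether an hour at 38 °C changes the polymerase transcripts. None of the 3 genes was called in WT, where rpoB differed by −0.01 ± 0.15 (adjusted p = 0.987), rpoC1 by 0.11 ± 0.13 (adjusted p = 0.721) and rpoC2 by 0.06 ± 0.13 (adjusted p = 0.853). The 95% interval of the linear model ran from −0.31 to 0.30 for rpoB, from −0.17 to 0.39 for rpoC1 and from −0.20 to 0.32 for rpoC2. Of all genes tested 13.3% were called in the WT heat response. In hd2c-3 the values were 0.06 ± 0.15 for rpoB, −0.04 ± 0.13 for rpoC1 and 0.05 ± 0.13 for rpoC2, with 0 of 3 called against 20% of all genes. In brm-1 they were 0.04 ± 0.15, −0.01 ± 0.13 and 0.08 ± 0.13, with 0 of 3 called against 15.8%. In these 3 genotypes limma gave no unadjusted p under 0.05 for any of the 3 genes, also without moderation.

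In the double mutant all 3 genes had lower means after heat. Its arrays were among those the genes were picked on, for being high, so this contrast is not independent of that choice. rpoB differed by −0.22 ± 0.15 (95% interval −0.53 to 0.08, adjusted p = 0.347), rpoC1 by −0.26 ± 0.13 (−0.54 to 0.01, adjusted p = 0.193) and rpoC2 by −0.18 ± 0.13 (−0.44 to 0.08, adjusted p = 0.382). None of the 3 was called, against 21.5% of all genes, and the heated and control arrays overlapped for each of them, whereas 16.9% of all genes were lower without overlap. At an unadjusted p under 0.05 limma gave 0 of 3, and 1 of 3 without moderation. The value of rpoC1 was −0.39 (adjusted p = 0.0478) without replicate 2 of the heated double mutant, the array with the highest levels of its group. Without replicate 3 of that group the value of rpoB was −0.07, and without replicate 1 of the double mutant control group that of rpoC2 was −0.08. Under cyclic loess the 3 values were smaller, at −0.09 for rpoB, −0.13 for rpoC1 and −0.05 for rpoC2.

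After heat 3 of the 60 other plastid genes were called higher in WT, a share near that of all genes. rps16 rose by 0.55 ± 0.13 (adjusted p = 0.00576), rpl33, of the large ribosomal subunit, rose by 0.45 ± 0.15 (adjusted p = 0.0474) and rps15 rose by 0.33 ± 0.10 (adjusted p = 0.0220). No other plastid gene was called lower, and 5.81% of all genes were called higher. rps16 kept its call under all 15 alternatives, whereas rpl33 lost it under 8 and rps15 under 6, single WT arrays among them in both cases. The median heat response of the 60 was 0.05 in WT, −0.02 in hd2c-3, −0.01 in brm-1 and −0.03 in the double mutant, against 0.01, 0.05, 0.01 and 0.00 over all genes. In the 3 mutant genotypes 0 of 60 were called, with 2, 3 and 1 at an unadjusted p under 0.05 and 3, 2 and 0 called without moderation in hd2c-3, brm-1 and the double mutant.

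**Figure D4:**
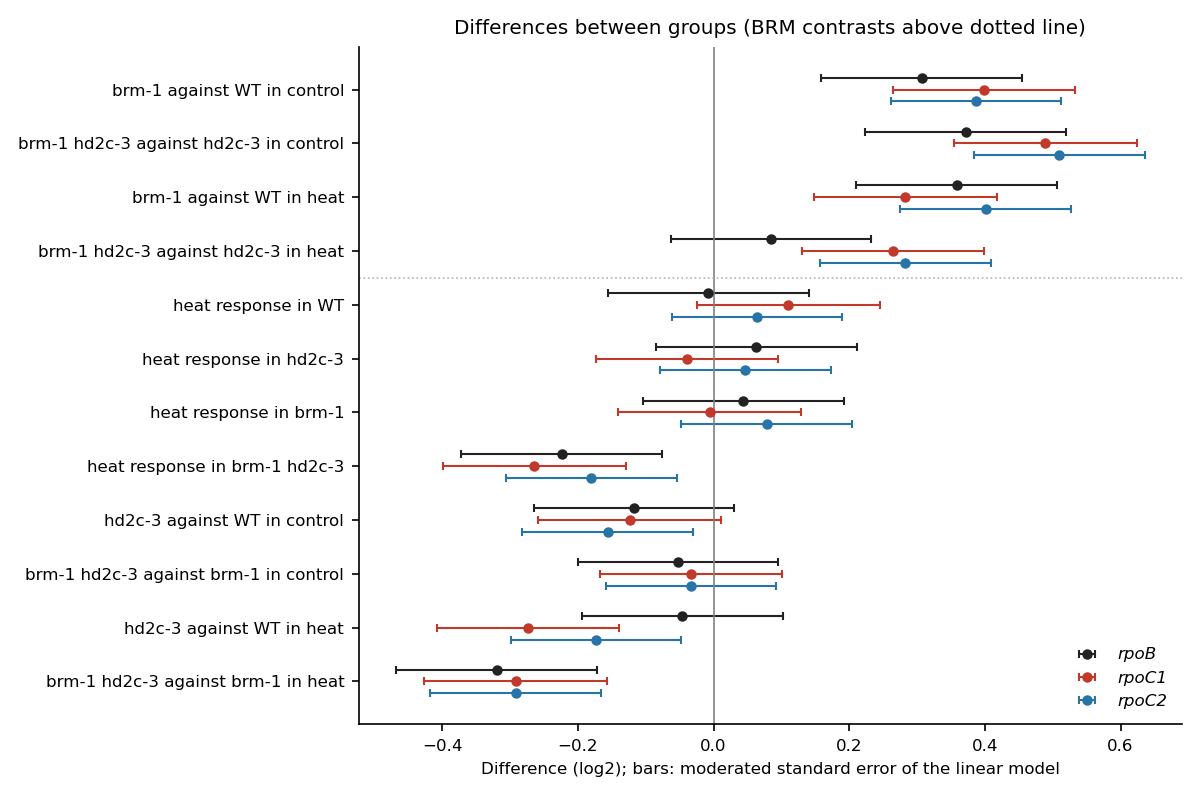
Differences in log2 intensity (horizontal axis) of rpoB, rpoC1 and rpoC2 in 12 contrasts (vertical axis), with bars for the moderated standard error. The 4 contrasts above the dotted line compare plants without and with BRM, for which the genes were picked; of the 8 tested contrasts below it, values furthest from 0 are those of heated brm-1 hd2c-3 against heated brm-1, at −0.32 to −0.29, and none was called.

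The loss of HD2C was compared with BRM present and with BRM absent. In control hd2c-3 minus WT was −0.12 ± 0.15 for rpoB, −0.12 ± 0.13 for rpoC1 and −0.16 ± 0.13 for rpoC2, each with an adjusted p of 1. Their 95% intervals ran from −0.42 to 0.19, from −0.40 to 0.16 and from −0.42 to 0.10. The values of the 2 groups did not overlap for 1 of 3, rpoC1, which was lower in hd2c-3, as were 4.84% of all genes. In heat hd2c-3 minus WT was −0.05 ± 0.15 (adjusted p = 0.929), −0.27 ± 0.13 (adjusted p = 0.404) and −0.17 ± 0.13 (adjusted p = 0.588) for rpoB, rpoC1 and rpoC2. None of the 3 was called in control, where 0.00604% of all genes were, or in heat, where 0.598% were. At an unadjusted p under 0.05 limma gave 0 of 3 in both conditions, and without moderation 0 of 3 in control and 1 of 3 in heat. The WT and hd2c-3 arrays were among those on which the genes were picked, for being low.

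With BRM absent, the double mutant minus brm-1 in control was −0.05 ± 0.15 for rpoB, −0.03 ± 0.13 for rpoC1 and −0.03 ± 0.13 for rpoC2, each with an adjusted p of 1. None was called, against 0.0423% of all genes, and none had an unadjusted p under 0.05, also without moderation. After heat the double mutant minus brm-1 was −0.32 ± 0.15 for rpoB (95% interval −0.63 to −0.01, adjusted p = 0.255), −0.29 ± 0.13 for rpoC1 (−0.57 to −0.01, adjusted p = 0.253) and −0.29 ± 0.13 for rpoC2 (−0.55 to −0.03, adjusted p = 0.213). None of the 3 passed the threshold over all genes, of which 4.8% did, although all 3 had an unadjusted p under 0.05 in limma, with and without moderation. The arrays of the 2 groups did not overlap for 2 of 3, rpoB and rpoC2, as for 9.73% of all genes in that direction. Without replicate 3 of the heated double mutant the value of rpoB was −0.17. The median of the 60 other plastid genes in this contrast was −0.04, with 0 called, 3 at an unadjusted p under 0.05 and 0 called without moderation. The lowest of the 60 were rpl36 at −0.41, ndhH at −0.30, ndhF at −0.27 and rps2 at −0.26, so such values were not particular to the members. Relative to the median of the 60, rpoB, rpoC1 and rpoC2 were at −0.29, −0.26 and −0.26. Relative to the plastid ribosomal protein genes, whose median was −0.14, they were at −0.18, −0.15 and −0.15. Under cyclic loess the values were −0.25 for rpoB, −0.22 for rpoC1 and −0.22 for rpoC2, and none of the 3 had an unadjusted p under 0.05. None had one either when only the compared arrays were fitted. The brm-1 and double mutant arrays were among those the genes were picked on, for being high, so this contrast is not independent of that choice.

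The change of the heat response with the loss of HD2C was tested as an interaction. With BRM present it was 0.07 ± 0.21 for rpoB, −0.15 ± 0.19 for rpoC1 and −0.02 ± 0.18 for rpoC2 (adjusted p from 0.936 to 0.994). With BRM absent it was −0.27 ± 0.21 for rpoB, −0.26 ± 0.19 for rpoC1 and −0.26 ± 0.18 for rpoC2 (adjusted p from 0.615 to 0.677). These came closest to 0 at −0.11 for rpoB without replicate 3 of the heated double mutant, −0.17 for rpoC1 without replicate 3 of brm-1 control and −0.16 for rpoC2 without replicate 1 of the double mutant control group. In neither case was any of the 3 called by limma, against 0% and 2.36% of all genes, and none had an unadjusted p under 0.05, also without moderation. With BRM absent the 95% interval of rpoC2 ran from −0.63 to 0.11. The arrays of both interactions were among those the genes were picked on. Over all 30 tests of the 3 genes in 10 contrasts, 0 were called, with 3 at an unadjusted p under 0.05, and 5 without moderation.

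The 3 genes also varied together within groups. Deviations from the group means over the 24 arrays had a Pearson r of 0.56 between rpoB and rpoC1, 0.71 between rpoB and rpoC2 and 0.59 between rpoC1 and rpoC2. With rpoA the values were −0.01 for rpoB, 0.37 for rpoC1 and 0.45 for rpoC2, and with the median of the 60 other plastid genes they were 0.24, 0.56 and 0.42. All probe sets of an array share its RNA, labelling and scaling, so that these values are descriptions. In control rpoB was lowest in replicate 3 of each genotype, which rpoC1 and rpoC2 did not show in every genotype. The neighbour rps2 was also lowest in replicate 3 of each control group. In the heated double mutant rps2 read 11.24, 11.47 and 10.90, the same order of replicates as for rpoB. Its correlation with the members was not computed. For rps19 r with the mean of the members was 0.91 within groups, so the co-variation was not particular to the 3 genes. The pooled SD between replicates was 0.18 for rpoB, 0.15 for rpoC1 and 0.14 for rpoC2, against a median of 0.08 over the other plastid genes and 0.21 over all genes.

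The genes whose levels over the 24 arrays followed the mean of the 3 members most closely were named by Pearson r, the members themselves left out. The 10 highest were AT2G40520 (r = 0.90), rps19 (0.88), MAP1C (0.87), AT5G55220 (0.87), ndhI (0.86), AT3G23700 (0.86), AT1G14710 (0.85), BGLU45 (0.85), AT2G07676 (0.83) and GLR1.4 (0.83). Of these rps19 and ndhI are plastid genes, for a ribosomal protein and a subunit of the NDH complex, and the others lie on nuclear chromosomes. MAP1C is a methionine aminopeptidase, AT5G55220 a trigger factor type chaperone, BGLU45 a β-glucosidase and GLR1.4 a glutamate receptor-like channel. Within groups r with the mean of the members was 0.91 for rps19 and 0.73 for AT2G40520, and it was 0.14 for BGLU45, whose level followed the genotype. BGLU45 was 1.35 ± 0.14 higher in brm-1 than in WT in control, and rps19 0.15 ± 0.12. The differences between groups on which the members were chosen enter these correlations.

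Of the nuclear genes that serve the plastid polymerases few have a named probe set of their own: 0 of 6 sigma factors, 0 of 14 proteins associated with the polymerase, 1 of 3 phage-type polymerases and 2 of 8 factors of plastid RNA editing and turnover. The phage-type polymerase is AT5G15700 (RPOTmp), an enzyme found in mitochondria and plastids. Its level in double mutant control was 3.92, 4.32 and 3.98, and in the heated double mutant 4.93, 4.75 and 4.41. AT5G15700 rose by 0.63 ± 0.17 with heat in the double mutant (adjusted p = 0.0100), and it lost this call without replicate 1 of either group. Its heat responses were 0.16 ± 0.17 (adjusted p = 0.676) in WT, 0.46 ± 0.17 (adjusted p = 0.0673) in hd2c-3 and −0.20 ± 0.17 (adjusted p = 0.563) in brm-1. For AT5G15700 brm-1 minus WT was 0.08 ± 0.17 in control and −0.27 ± 0.17 in heat. The double mutant minus hd2c-3 was −0.34 ± 0.17 in control and −0.16 ± 0.17 in heat. AT5G15700 was not called in any contrast of genotypes or of heat responses.

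Both measured RNA factors, AT3G22690 (YS1) and CRR22, are pentatricopeptide repeat proteins needed to edit sites in the rpoB transcript. AT3G22690 had group means of only 1.49 to 2.09, and no detection call was used here. In WT it read 1.36, 1.60 and 1.51 in control and 1.88, 2.07 and 2.31 after heat, a rise of 0.59 ± 0.15 (adjusted p = 0.0108). That call was lost without WT control replicate 1 and without WT heat replicate 3. In brm-1 control AT3G22690 was higher than in WT by 0.43 ± 0.15, which was not called (adjusted p = 0.141). CRR22 had a lowest group mean of 4.80, in heated hd2c-3, and was not called in any contrast, with 0.18 ± 0.21 (adjusted p = 0.858) for brm-1 minus WT in control. Its heat responses lay between −0.33 ± 0.21 in hd2c-3 (adjusted p = 0.304) and 0.20 ± 0.21 in WT (adjusted p = 0.665).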

How the data were processed

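Labelled cDNA from total RNA was hybridised to 24 Affymetrix arrays, per the labels' protocols. The deposited values are log2 intensities, 1 per probe set and array, for 38408 probe sets. RMA and Partek are named in the submitters' processing notes, and versions, settings and the order of steps are not given in the sources used here. Array medians lay between 3.42 and 3.65, and no 2 arrays were identical. The number of arrays limits the precision.

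The deposited platform table names 17504 probe sets, and 758 that carry several genes were left out. The probe set with the highest mean stood for a gene, which left 16554 genes, of which 16418 were found in RefSeq's TAIR10.1 genes, consulted for names and gene order. Nuclear copies of plastid DNA could share probes with the members, which was not tested. The 24 arrays were fitted together by limma 3.58.1 (R 4.3.3), with 1 coefficient for each group and empirical Bayes moderation (16 degrees of freedom from the arrays, 6.25 from the prior). The fit pools the spread over groups. Tests were two-sided, with Benjamini-Hochberg adjustment over all genes and a threshold of 0.05. Replicates are called biological in the design text, with nothing on separate sowings or pooling.

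The members and lists were chosen with earlier results of these data known. Genes named are the members, measured genes of the polymerase lists, called list genes and the 10 genes most like the members. The neighbours rps2, petN and psbM, and rpl33 and ndhH in the BRM contrasts, were named after their values were seen. So were rpl36, ndhH and ndhF in the double mutant minus brm-1 in heat. The other lists gave no called gene beyond those named. Replicate numbers were not taken to pair the arrays, since no source says that they do. Not every same-numbered pair correlated above 0.1, but that is a strict rule, and failing it cannot exclude a shared effect of the number. A fit with the number as a block was among the alternatives. The method was run on simulated arrays in which genes varied independently of each other, unlike the members here. That run was a check of the code, and nothing about the members is read from it. Matplotlib 3.10.9 drew the plots. Alternatives were other scalings, filters, variance models, fits and arrays left out.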

Additional observations from a re-analysis of the deposited data

How the results depend on the processing

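None of the 3 polymerase genes was called in any of the 10 tested contrasts under any alternative, except rpoC1 in the heat response of the double mutant, which lay between −0.39 and −0.20 when 1 array was left out and was called at −0.39. Differences near 0 changed sign. With equal array medians rpoC1 was 0.00 in the heat response of hd2c-3 and 0.04 in that of brm-1, rpoB was 0.01 in hd2c-3 minus WT in heat, and rpoC2 was 0.05 in the interaction of hd2c-3 with heat. Under cyclic loess these 4 values were 0.03, 0.07, 0.03 and 0.06. With array weights rpoB was 0.02 in the WT heat response and rpoC1 was 0.01 in that of brm-1. The cause was not tested.

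With 1 array left out, the heat response of rpoB ran from −0.07 to 0.07 in WT, from −0.03 to 0.15 in hd2c-3 and from −0.06 to 0.12 in brm-1. That of rpoC1 ran from −0.19 to 0.04 in hd2c-3 and from −0.10 to 0.08 in brm-1, and that of rpoC2 from −0.03 to 0.17 in hd2c-3. For hd2c-3 minus WT in heat rpoB ran from −0.13 to 0.04. In the interaction of hd2c-3 with heat rpoB ran from −0.02 to 0.16 and rpoC2 from −0.10 to 0.10. For the double mutant minus brm-1 in control the ranges were −0.15 to 0.07 for rpoB, −0.12 to 0.06 for rpoC1 and −0.13 to 0.04 for rpoC2. The BRM differences, which have no test, moved by less than 1 SD under each alternative, but those near 0 changed sign with 1 array left out. For the double mutant minus hd2c-3 in heat rpoB ran from −0.05 to 0.24, and in the interaction of brm-1 with heat rpoB ran from −0.05 to 0.12 and rpoC2 from −0.04 to 0.06. In the interaction of the double mutant with heat the ranges for rpoB, rpoC1 and rpoC2 were −0.42 to −0.13, −0.35 to −0.08 and −0.35 to −0.13 against hd2c-3, and −0.40 to −0.11, −0.39 to −0.17 and −0.34 to −0.16 against brm-1.

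The replicate number as a block changed no call of the 3 genes, with an adjusted p of 0.148 for rpoB in the double mutant minus brm-1 in heat. Of 84 same-numbered pairs 23 correlated above 0.1, with a mean of 0.04 against −0.02 for other pairs, and 14 of 24 arrays were closest to arrays of their own number. This hints at some shared variation by number, which the labels do not describe. The hint was not tested, and the values that unrelated numbers would give were not computed. The block took the call of rpl33 in the WT heat response. Relative to plastid ribosomal protein genes only, brm-1 minus WT in heat was 0.20, 0.12 and 0.24 for rpoB, rpoC1 and rpoC2. On that scale the double mutant minus hd2c-3 was 0.20, 0.32 and 0.34 in control and −0.07, 0.11 and 0.12 in heat. Calls over all genes depended more on the fit. In the heat responses 2200 genes were called in WT, 3316 in hd2c-3, 2613 in brm-1 and 3554 in the double mutant, and with unnamed probe sets included 4218, 6342, 4988 and 6779. For the double mutant minus brm-1 in heat 794 were called, 165 with only the compared arrays and 384 to 1164 with 1 array left out. For hd2c-3 minus WT in heat 99 were called, 3 with only the compared arrays and 3 to 357 with 1 array left out. The interaction with BRM absent gave 390, with 197 to 587 under other settings, and that with BRM present gave 0, with up to 71 when 1 array was left out. The double mutant minus brm-1 in control gave 7, with 0 to 41 over all alternatives, and hd2c-3 minus WT in control gave 1, with 1 to 3. For BRM in control 705 (brm-1) and 543 (double mutant) were called, with up to 1322 and 950 under other settings and down to 458 and 339 with 1 array left out. In heat 844 and 833 were called, with 531 to 1458 and 215 to 1606 under other settings.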
